A study of Mus musculus with 6 samples.

Results

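Chemokine ligands and the atypical receptors that scavenge them were followed in 6 RNA-seq libraries of mouse cells, of which 3 carried a vector control (control) and 3 a lentiviral Cas9 knockout of S100a8 (knockout). Members were all genes of the table with a symbol of the form Ccl, Cxcl, Cx3cl1, Xcl1 or Ackr followed by their number, which gave 33 of 18051 genes: 19 CC ligands, 10 CXC ligands, Cx3cl1 and 3 scavenging receptors (Ackr2, Ackr3 and Ackr4). The labels name the cells hematopoietic stem cells. The study's text instead describes profiling of mouse embryonic fibroblasts whose S100a8 was mutated with Cas9 and that also received glycyrrhizic acid. It reports lower S100a8 mRNA in such cells, and a legend calls them a knockdown. Whether the control cells also received the compound is not stated there. If they did not, knockout and compound cannot be told apart in the differences below. The labels name neither a compound, an age, nor the guide used, and they do not say whether the replicates were separate cultures, so each p-value below measures only the spread between these libraries. No clone was named, and the study's text describes puromycin selection of infected cells.

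Chemokines are small secreted proteins that guide leukocytes through G protein-coupled receptors. CXC and CC ligands differ in the spacing of their first conserved cysteines. A subset of CXC ligands attracts neutrophils through CXCR2 and is induced through NF-kB by TNF, IL-1 and IL-17, whereas the ligands of CXCR3 attract T cells and are induced by interferons. Fibroblasts are a known source of several chemokines. The atypical receptors bind chemokines without activating G proteins and remove them from the surroundings.

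Expression was given by the authors as FPKM (sequenced fragments relative to transcript length in kilobases and to library size). FPKM values summed to 467255 to 538504 per library, and the number of fragments behind them is unknown. The target S100a8, a calcium-binding protein of neutrophils, stood at 3.67, 1.61 and 3.95 FPKM in the controls, and each of the 3 knockout libraries listed it at 0. Of 8 fibroblast markers, 7 had a mean of at least 10 FPKM, and their summed level was 3019 to 3063 FPKM in control and 4329 to 4837 in knockout libraries. Vim, Col1a1 and Col1a2 made up most of this sum, and the list did not move as one. Dcn fell by 3.57 on the log2(FPKM + 1) scale, from 63.5 to 69.2 FPKM in control to 4.37 to 5.01 FPKM in knockout libraries, and Thy1 was listed at 0 in every control library and at 3.70 to 4.18 FPKM in the knockout. The 6 stem and progenitor markers in the table summed to 64.9 to 67.2 FPKM in control and 41.7 to 43.1 FPKM in knockout libraries, most of it Cd34 (55.3 to 58.03 and 31.8 to 33.95 FPKM), with Procr at 5.85 to 7.70 FPKM. Mecom of that list was higher in the knockout, at 2.03 to 3.14 FPKM against 1.83 to 1.95 FPKM in control libraries. Kit of that list and the leukocyte marker Ptprc were listed at 0 in every library. Kit encodes CD117, by which the study purified its stem cells. Flt3 and Gfi1b of that list did not exceed 0.13 and 0.06 FPKM. Only Cd34, Procr and Mecom of that list had a mean above 1 FPKM. The list as a whole thus did not bear out the labelled cell type, beside abundant fibroblast genes. The 7 leukocyte markers in the table summed to 5.38 to 6.59 FPKM in control and 3.98 to 4.54 FPKM in knockout libraries. This list did not move as one either. Cd68, Itgam and Ly6g were lower in every knockout library than in any control library. Mpo and Csf1r were higher, and Lyz2 overlapped. Of these, only Cd68 and Lyz2 had a mean above 1 FPKM. The 7 endothelial markers summed to 0.51 to 0.60 FPKM in control and 0.15 to 0.28 FPKM in knockout libraries. Their part in the differences below was not tested. Fewer cells of a type and less RNA per cell cannot be told apart in bulk RNA. Knockout replicate 2 stood apart, with correlations across genes of 0.986 and 0.990 with the other knockout libraries, which correlated with each other at 0.998.

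The regulatory sequence in front of 5 members is shown, chosen after the search from the 7 members with an NF-kB match: Cxcl10 and Cxcl1 fell, Ccl20 rose, and Cxcl2 and Cxcl3 were near 0 beside their neighbour Cxcl1. Ackr2 and Ccl9 also held a match and are not shown, and Ccl8, which fell more than Cxcl1, held 0 matches to any motif searched. Each run covers the 250 bases before the RefSeq start on GRCm38.p6, 5′ to 3′ on the gene's strand. Capitals mark matches, on either strand, to the interferon-stimulated response element (GAAA, any 2 bases, GAAA), GAS (TTCNNNGAA), AP-1 (TGACTCA), C/EBP (TTGCNNAA) and the NF-kB consensus.
Cxcl10 (chr5:92348890-92349139, strand -): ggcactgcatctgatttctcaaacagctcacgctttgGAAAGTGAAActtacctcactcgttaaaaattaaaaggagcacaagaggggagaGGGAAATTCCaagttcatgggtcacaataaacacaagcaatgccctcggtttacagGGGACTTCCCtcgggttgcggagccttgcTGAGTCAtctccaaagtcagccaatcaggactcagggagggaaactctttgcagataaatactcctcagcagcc
Cxcl1 (chr5:90890995-90891244, strand +): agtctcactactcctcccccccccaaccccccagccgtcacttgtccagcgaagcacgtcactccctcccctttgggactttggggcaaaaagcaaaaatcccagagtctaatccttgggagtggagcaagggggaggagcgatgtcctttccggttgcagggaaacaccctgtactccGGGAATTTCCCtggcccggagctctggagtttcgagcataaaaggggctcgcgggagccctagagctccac
Cxcl2 (chr5:90903649-90903898, strand +): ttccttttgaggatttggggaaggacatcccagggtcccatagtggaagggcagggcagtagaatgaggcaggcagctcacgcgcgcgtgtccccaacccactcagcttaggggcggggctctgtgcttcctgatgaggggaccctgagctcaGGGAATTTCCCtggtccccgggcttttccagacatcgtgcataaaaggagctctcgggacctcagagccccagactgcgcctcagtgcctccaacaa
Cxcl3 (chr5:90785851-90786100, strand +): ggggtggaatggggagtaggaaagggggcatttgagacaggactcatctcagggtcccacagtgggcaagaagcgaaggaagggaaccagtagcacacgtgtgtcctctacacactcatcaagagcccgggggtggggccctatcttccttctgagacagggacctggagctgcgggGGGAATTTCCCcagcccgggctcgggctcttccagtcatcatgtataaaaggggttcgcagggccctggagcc
Ccl20 (chr1:83116516-83116765, strand +): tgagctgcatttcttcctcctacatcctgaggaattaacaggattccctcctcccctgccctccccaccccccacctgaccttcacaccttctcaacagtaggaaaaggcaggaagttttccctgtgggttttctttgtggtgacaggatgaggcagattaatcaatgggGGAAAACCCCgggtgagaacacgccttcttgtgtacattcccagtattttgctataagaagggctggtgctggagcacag

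The window of Cxcl10 held 1 interferon-stimulated response element, 204 to 213 bases before the start, 2 NF-kB matches and 1 AP-1 match. The interferon element occurred in 2.98% of all 32851 windows of this length and the NF-kB consensus in 3.90%. Cxcl1, Cxcl2 and Cxcl3 each held the letters GGGAATTTCCC, in which 2 NF-kB matches overlap by all but 1 base, at 61 to 71, 87 to 97 and 63 to 73 bases before the start. Ccl20 held 1 NF-kB match, on the opposite strand. RefSeq windows were found for 25 of the 33 members, and 7 of these 25 held an NF-kB match and 2 an interferon element. Members are counted here by gene, some with more than 1 window, whereas the percentages are per window, so they were not compared. The 7 also include the neighbours Cxcl1, Cxcl2 and Cxcl3 with the same letters, which are not independent. Of the 17 tested members, only 11 had a window. Cxcl5, Ccl2, Ccl7, Ccl5, Cxcl16 and Ccl11 had none and were not searched. Of the 31 windows of members, 27 matched the start of a transcript. GAS matches occurred in 7.02% of all windows and in 2 members, AP-1 in 4.46% and 3 members, and C/EBP in 9.56% and 3 members. A match is a description of letters and does not show that a factor was bound.

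Of the 33 members, 17 had a mean of at least 1 FPKM over the 6 libraries and were tested. Knockout and control were compared with limma on log2(FPKM + 1), and an adjusted p below 0.05 over all 11112 tested genes was required. Differences are given on this log2 scale throughout, and for weakly expressed genes they are smaller than the ratio of the means. Of the 17, 14 were lower in the knockout, 2 were higher and Cx3cl1 did not pass. Over all tested genes, 50.2% passed in either direction, 26.7% were lower and 23.6% higher, and the median difference was -0.02, against -0.91 for the tested members. Control and knockout libraries were fully separated for the 14 lower and the 2 higher members, as they were for 31.9% and 28.8% of all tested genes. Ccl11, Ccl20 and Ccl27a reached the mean of 1 FPKM only through the group in which they were high. The members that fell by more than 1 numbered 8, against 5.07% of all tested genes, and 4 fell by more than 2, against 1.65%. When weakly expressed genes were also tested, 31 members entered, of which 15 were lower and 5 higher, against 19.7% and 17.7% of all 17453 genes.

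**Figure D1:**
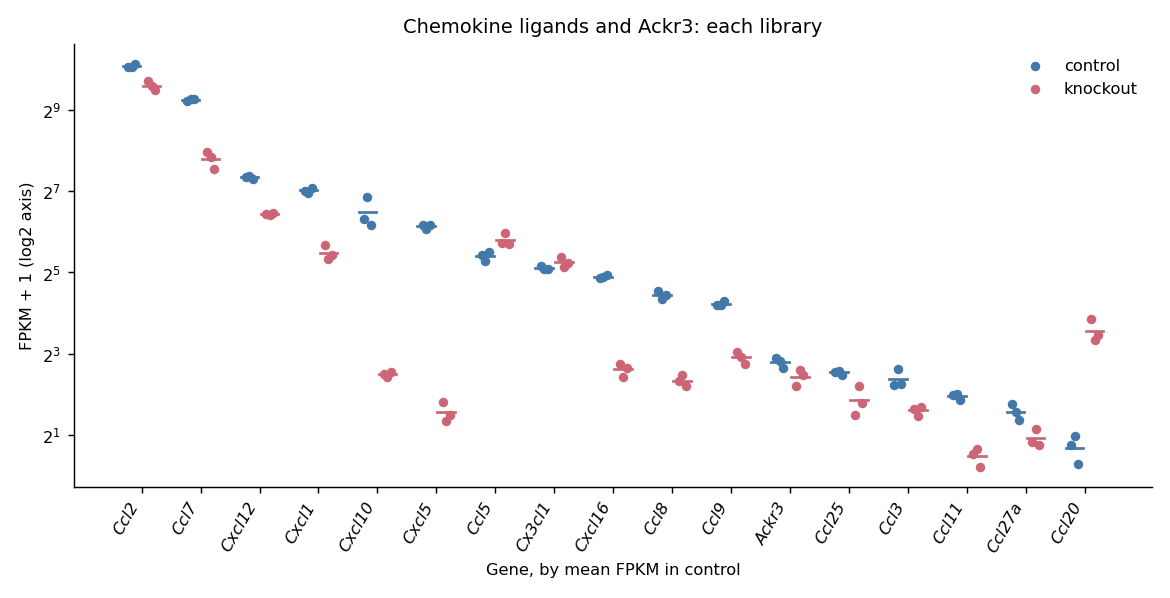
FPKM + 1 of the 17 tested members in each library, on a log2 axis, with control in blue and knockout in red. Points are libraries and bars are group means of FPKM + 1. The groups overlap only for Cx3cl1, and Ccl20 and Ccl5 are the members with knockout values above all control values.

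Of the 5 neutrophil-attracting CXC ligands, the 2 that were tested, Cxcl5 and Cxcl1, were lower in the knockout, by unequal amounts. Cxcl5, a ligand of CXCR2, was read at 71.5, 66.04 and 70.8 FPKM in the controls and at 2.49, 1.53 and 1.80 FPKM in knockout libraries. Its lowest control library lay far above its highest knockout library. Cxcl5 fell by 4.59 ± 0.12 (SE, adjusted p = 4.53e-08), and its mean FPKM was 35.8 times lower. Cxcl1, the mouse ligand long known as KC, was read at 128.6, 124 and 135 FPKM in control and at 50.3, 39.5 and 41.8 FPKM in knockout libraries. These groups did not overlap either, but Cxcl1 kept a sizeable level in the knockout. Cxcl1 fell by 1.54 ± 0.09 (SE, adjusted p = 5.43e-06). The ratio of Cxcl1 to Cxcl5 in FPKM, which is per transcript length, was 1.86 ± 0.06 in control against 23.1 ± 2.79 in knockout libraries (SD, n = 3).

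The remaining members of this group were close to 0. Cxcl2, also a CXCR2 ligand, had 0 in each control library and was found at 0.67, 0.47 and 0.34 FPKM in knockout libraries, the opposite direction to its neighbour Cxcl1. Cxcl3 lay between 0 and 0.11 FPKM, with overlapping groups. Cxcl15, known as lungkine, was read at 0.07 to 0.15 FPKM in control and 0.02 to 0.03 FPKM in knockout libraries. These 3 genes were under 1 FPKM in every library and were not in the main test. Ppbp and Pf4, platelet chemokines whose symbols lie outside the rule, were read at 0.82 to 0.93 and 0.09 to 0.19 FPKM in the controls, and at no more than 0.05 FPKM in any knockout library.

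The interferon-induced ligands did not move together. Cxcl10, a CXCR3 ligand that attracts activated T cells, was read at 79.5, 115.8 and 71.1 FPKM in the controls and at 4.64, 4.35 and 4.79 FPKM in knockout libraries. Control replicate 2 was the highest, and every control library lay above every knockout library. Cxcl10 fell by 3.97 ± 0.16 (SE, adjusted p = 5.35e-07), and its mean FPKM was 19.3 times lower. Cxcl9, another CXCR3 ligand, was near 0, at 0.11, 0.36 and 0.23 FPKM in control and 0.02 FPKM in each knockout library.

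Ccl5, which attracts T cells and monocytes and is induced by interferon regulatory factors as well as NF-kB, moved the other way. It was read at 42.4, 38.3 and 44.1 FPKM in control and at 51.9, 61.4 and 50.7 FPKM in knockout libraries. All knockout values exceeded all control values by a small margin. Ccl5 rose by 0.38 ± 0.09 (SE, adjusted p = 0.00852), or 1.32 times in mean FPKM. The ratio of Ccl5 to Cxcl10 in FPKM was 0.494 ± 0.149 in control against 12.0 ± 1.90 in knockout libraries (SD, n = 3).

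Both remaining tested CXC ligands were lower. Cxcl16, a membrane-anchored ligand of CXCR6 that also binds oxidized lipoprotein, was read at 28.2, 28.8 and 29.6 FPKM in control and at 5.72, 4.38 and 5.22 FPKM in knockout libraries. The groups were widely separated, and Cxcl16 fell by 2.30 ± 0.09 (SE, adjusted p = 4.13e-07). Cxcl12, the CXCR4 ligand that retains hematopoietic stem cells in the marrow, was read at 164, 165 and 158 FPKM in control and at 86.1, 84.1 and 87.6 FPKM in knockout libraries. Within each group its libraries were close to each other. Cxcl12 fell by 0.91 ± 0.05 (SE, adjusted p = 5.14e-06), a mean FPKM 1.89 times lower. All 5 tested CXC ligands were thus lower, with a median difference of -2.30. Cxcl14 was at 0 to 0.06 FPKM.

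**Figure D2:**
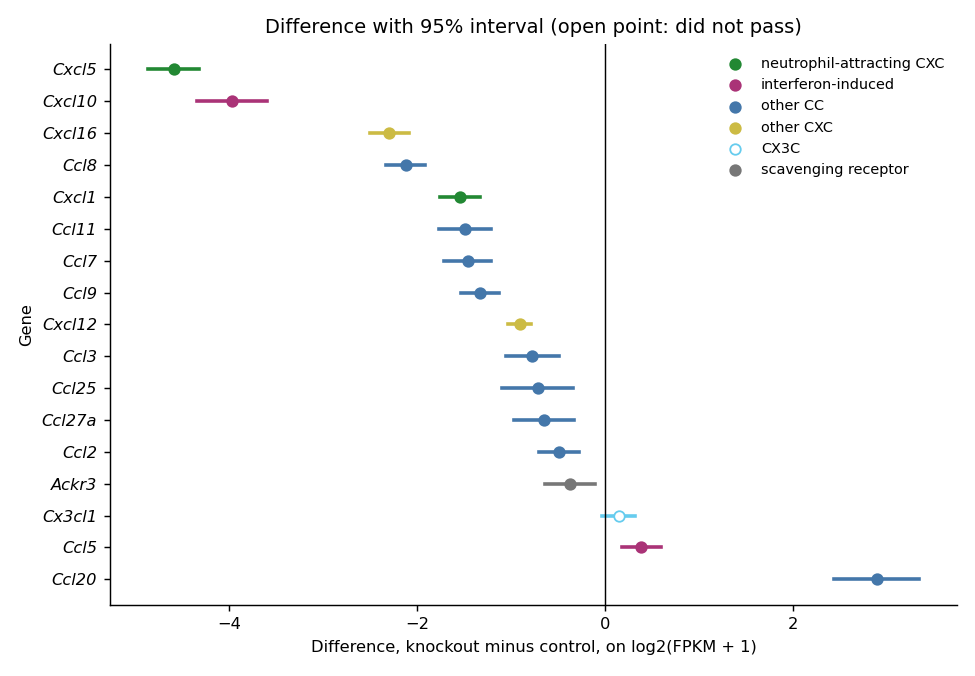
Difference between knockout and control on log2(FPKM + 1) for the 17 tested members, with the 95% interval from limma as a line. Colours give the ligand group, and the open point, Cx3cl1, did not pass. Cxcl5 and Cxcl10 lie furthest to the left, at -4.59 and -3.97, and Ccl20 alone lies beyond 2 on the right, at 2.89.

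Among CC ligands, 8 of 10 tested genes were lower and 2, Ccl5 and Ccl20, were higher, with a median difference of -0.75. The CCR2 ligands, which recruit monocytes, were the most abundant chemokines of these libraries. Ccl2, also called MCP-1, was read at 1074, 1078 and 1128 FPKM in control and at 841, 777 and 725 FPKM in knockout libraries. It fell by 0.49 ± 0.09 (SE, adjusted p = 0.00294) and ranked first among the members in both groups. Ccl7, also called MCP-3, was read at 600.2, 619.9 and 617 FPKM in control and at 249, 231 and 188 FPKM in knockout libraries. Ccl7 fell by 1.46 ± 0.11 (SE, adjusted p = 1.67e-05), so that the ratio of Ccl2 to Ccl7 went from 1.79 ± 0.04 to 3.53 ± 0.28 (SD, n = 3). Ccl12, the third CCR2 ligand of the mouse, did not exceed 0.10 FPKM in any library.

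Ccl8 and Ccl11 lie in the same chromosomal cluster as these genes. Ccl8, which acts on CCR8 in the mouse, was read at 22.4, 19.5 and 20.8 FPKM in control and at 3.99, 4.53 and 3.56 FPKM in knockout libraries. The groups were far apart, and Ccl8 fell by 2.12 ± 0.09 (SE, adjusted p = 7.29e-07). Ccl11, the eosinophil attractant eotaxin, was read at 2.96, 2.99 and 2.64 FPKM in control and at 0.44, 0.57 and 0.15 FPKM in knockout libraries. It fell by 1.49 ± 0.12 (SE, adjusted p = 3.05e-05), at levels where this scale understates the ratio of the means, 7.41.

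Ccl9 and Ccl3 act on CCR1. Ccl9 was read at 17.5, 17.2 and 18.7 FPKM in control and at 7.22, 6.58 and 5.72 FPKM in knockout libraries. It fell by 1.33 ± 0.09 (SE, adjusted p = 8.79e-06). Ccl3, or MIP-1 alpha, was low in both groups, at 3.67, 5.15 and 3.79 FPKM and at 2.08, 1.77 and 2.22 FPKM, and fell by 0.77 ± 0.12 (SE, adjusted p = 0.00115). The groups of both genes were apart. Its partner Ccl4 was at 0 in 5 libraries and at 0.08 FPKM in knockout replicate 3, and Ccl6 did not exceed 0.11 FPKM.

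Ccl20, the ligand of CCR6 on dendritic cells and IL-17-producing T cells, showed the largest rise among the members. It was read at 0.67, 0.94 and 0.20 FPKM in control and at 13.3, 9.05 and 10.03 FPKM in knockout libraries. Every knockout library lay far above every control library. Ccl20 rose by 2.89 ± 0.19 (SE, adjusted p = 1.04e-05), which ranked 30 among the 11112 tested genes by size of the rise. Of all tested genes, 3.03% passed with a rise above 1.

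The remaining CC ligands were low. Ccl25, which draws T cell precursors to the thymus and gut through CCR9, was read at 4.83, 4.97 and 4.58 FPKM in control and at 1.78, 3.59 and 2.41 FPKM in knockout libraries. It fell by 0.72 ± 0.16 (SE, adjusted p = 0.00787), with knockout replicate 2 nearest to control. Ccl27a, a skin ligand of CCR10, was read at 2.36, 1.92 and 1.55 FPKM in control and at 0.75, 1.21 and 0.67 FPKM in knockout libraries and fell by 0.65 ± 0.14 (SE, adjusted p = 0.00555). Ccl27a has a near-identical copy, Ccl27b, read at 0 to 0.57 FPKM, and reads can be shared between them, so these values are uncertain. Ccl17, a CCR4 ligand, was read at 0.65, 1.19 and 0.65 FPKM in control and at 0.54, 0.73 and 0.97 FPKM in knockout libraries, with overlapping groups. Ccl22, the other CCR4 ligand, and Ccl24 were listed at 0 in every library, and Ccl1 and Ccl28 did not exceed 0.11 FPKM.

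Cx3cl1, or fractalkine, a membrane-bound ligand that can tether leukocytes, was read at 34.6, 33.1 and 33.1 FPKM in control and at 41.03, 33.97 and 36.9 FPKM in knockout libraries. The groups overlapped, and the difference of 0.14 did not pass (95% interval -0.03 to 0.32, adjusted p = 0.151). Without knockout replicate 2 it was 0.21 and passed (adjusted p = 0.00459), in a setting where 7403 of 11129 genes passed. Without knockout replicate 1 it was 0.07 (adjusted p = 0.386), and on centring by chromosome it was 0.04 (adjusted p = 0.719).

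Of the scavenging receptors, only Ackr3, which takes up Cxcl12 and was formerly called Cxcr7, was tested. It was read at 6.46, 6.09 and 5.30 FPKM in control and at 3.58, 5.01 and 4.55 FPKM in knockout libraries. The lowest control and the highest knockout library were close to each other. Ackr3 fell by 0.38 ± 0.12 (SE, adjusted p = 0.0283). The call was lost without control replicate 1 or 2 (adjusted p = 0.107 and 0.0924), without knockout replicate 1 or 3 (0.0612 and 0.0579), without the minimum level (0.0556) and under quantile normalization (0.0720). Ackr2, a scavenger of inflammatory CC ligands, was listed at 0 in control libraries and at 0.02 to 0.05 FPKM in knockout libraries. Ackr4, which binds homeostatic ligands such as Ccl25, was read at 0.02 to 0.07 FPKM and 0.14 to 0.22 FPKM, respectively.

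Summed over the 30 ligands, FPKM was 2314 ± 31.9 in control against 1266 ± 97.7 in knockout libraries (SD, n = 3). No p-value is given for such sums. Ccl2 and Ccl7 together made up 73.7 ± 0.75% of this sum in control against 79.2 ± 0.95% in knockout libraries (SD, n = 3). The sum therefore followed mainly these 2 genes. The CC ligands summed to 1801 ± 36.5 FPKM in control against 1087 ± 91.8 FPKM in knockout libraries, and the CXC ligands to 479 ± 18.4 and 142 ± 7.86 FPKM (SD, n = 3). The neutrophil-attracting ligands went from 8.59 ± 0.35% to 3.66 ± 0.34% of the sum, and Ccl5 from 1.80 ± 0.13% to 4.33 ± 0.53% (SD, n = 3).

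**Figure D3:**
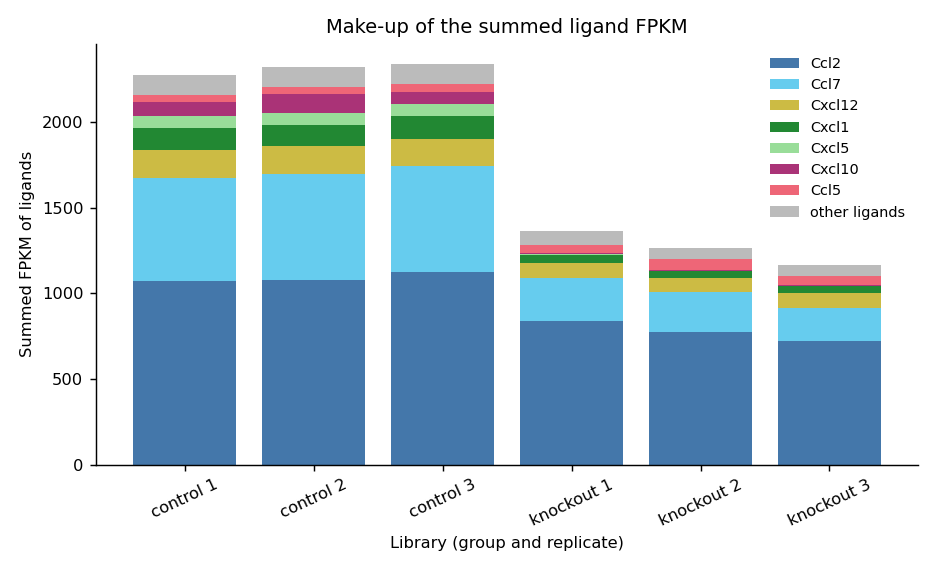
Summed FPKM of the 30 ligands in each library, stacked by gene, from 0. Control libraries sum to 2279 to 2341 FPKM and knockout libraries to 1168 to 1364 FPKM, and Ccl2 is the largest block in each.

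The order of levels also changed between the groups. In control libraries the order by mean FPKM was Ccl2, Ccl7, Cxcl12, Cxcl1, Cxcl10, Cxcl5 and Ccl5. Of these neighbours, Cxcl10 and Cxcl5 alone had overlapping library values. In knockout libraries the order was Ccl2, Ccl7, Cxcl12, Ccl5, Cxcl1, Cx3cl1 and Ccl20, and Cxcl1 and Cx3cl1 were the neighbours whose values overlapped. Cxcl5 went from rank 6 to rank 15 of 33 and Cxcl10 from rank 5 to rank 10, whereas Ccl20 went from rank 18 to rank 7.

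Many of the members are neighbours in the genome, and neighbours differed (GENCODE, GRCm38). On chromosome 11, Ccl2 (82035571 to 82037453), Ccl7 (82045712 to 82047525), Ccl11 (82057823 to 82062955) and Ccl8 (82115185 to 82116799) lie on the forward strand, with differences of -0.49, -1.46, -1.49 and -2.12. Further along the same chromosome, Ccl5 (83525778 to 83530518) and Ccl9 (83572919 to 83578636) lie 42.4 kb apart on the reverse strand, and the former rose while the latter fell. On chromosome 5, Cxcl5 (90759360 to 90761624), Cxcl1 (90891241 to 90893115) and Cxcl2 (90903871 to 90905938) lie on the forward strand, with Cxcl2 10.8 kb beyond Cxcl1. Cxcl10 (92346638 to 92348889) lies on the reverse strand, 18.6 kb from Cxcl9. Ccl20 is on chromosome 1 (83116766 to 83119167).

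The AUUUA pentamer, the core of AU-rich elements through which chemokine mRNAs are destabilized, was counted in the 3′ untranslated region of the longest coding transcript. Of 16 tested members with such a region, 11 had more copies per kilobase than the median tested gene (1.37 per kb). Cxcl1 held 7 copies in 595 bases and Ccl20 held 9 in 1053 bases. Cxcl5 held 5 in 1114 bases, whereas Ccl5 and Ccl8 held 0. Only 2 members rose, so copy number and direction were not compared.

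The receptors through which these ligands signal were nearly silent. Of 17 receptor genes in the table, counting Ccrl2, which is not one of these signalling receptors, 0 reached a mean of 1 FPKM. None was therefore tested, and Ccr6, the receptor of Ccl20, was listed at 0 in every library. Cxcr4, the receptor of Cxcl12, was read at 0.12, 0.14 and 0.03 FPKM in control and at 0.45, 0.64 and 0.50 FPKM in knockout libraries. Cxcr2 was read at 0.89 to 0.92 FPKM and 0.68 to 0.89 FPKM. Ccrl2, which binds chemerin and presents it to neighbouring cells, was read at 0.97, 1.06 and 0.75 FPKM in control and at 0.22, 0.05 and 0.14 FPKM in knockout libraries.

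Of 9 genes of interferon signalling, all tested, 6 fell, 1 rose and 2 did not pass, where 26.7% of all tested genes fell and 23.6% rose. Irf7, a transcription factor that amplifies interferon responses, was read at 72.8, 81.3 and 69.3 FPKM in control and at 1.26, 1.19 and 1.18 FPKM in knockout libraries and fell by 5.09 ± 0.07 (SE, adjusted p = 5.83e-09). Stat2, which carries the signal of type I interferons together with Irf9, was read at 43.1, 45.2 and 39.97 FPKM and at 8.77, 7.87 and 9.37 FPKM, and fell by 2.18 ± 0.08 (SE, adjusted p = 3.16e-07). Both had groups far apart. Irf1, a factor that also acts at NF-kB-dependent promoters, rose by 0.31 ± 0.06 (SE, adjusted p = 0.00292). Whether any of these genes bears on the ligands was not tested.

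Of 15 genes of the NF-kB, TNF, IL-1 and IL-17 inputs, 7 fell, 2 rose and 6 did not pass. Of all tested genes, 26.7% fell and 23.6% rose. The share of calls in either direction was near the 50.2% of all tested genes. Cebpb, a factor that acts with NF-kB on IL-17 targets, was read at 156, 146 and 156 FPKM in control and at 62.5, 62.0 and 52.3 FPKM in knockout libraries and fell by 1.36 ± 0.08 (SE, adjusted p = 4.92e-06). The IL-1 receptor Il1r1 fell by 1.16 ± 0.11 (SE, adjusted p = 8.39e-05). The inhibitor Nfkbia, itself an NF-kB target, was read at 80.8, 84.1 and 82.3 FPKM in control and at 126, 122 and 109.7 FPKM in knockout libraries and rose by 0.53 ± 0.07 (SE, adjusted p = 0.000417). The IL-17 receptor chain Il17rc was the other gene that rose, by 2.62 (adjusted p = 3.22e-07), while the chain Il17ra fell by 0.53 (adjusted p = 0.00155). The NF-kB subunit Rela did not pass (difference 0.04, 95% interval -0.12 to 0.21).

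**Figure D4:**
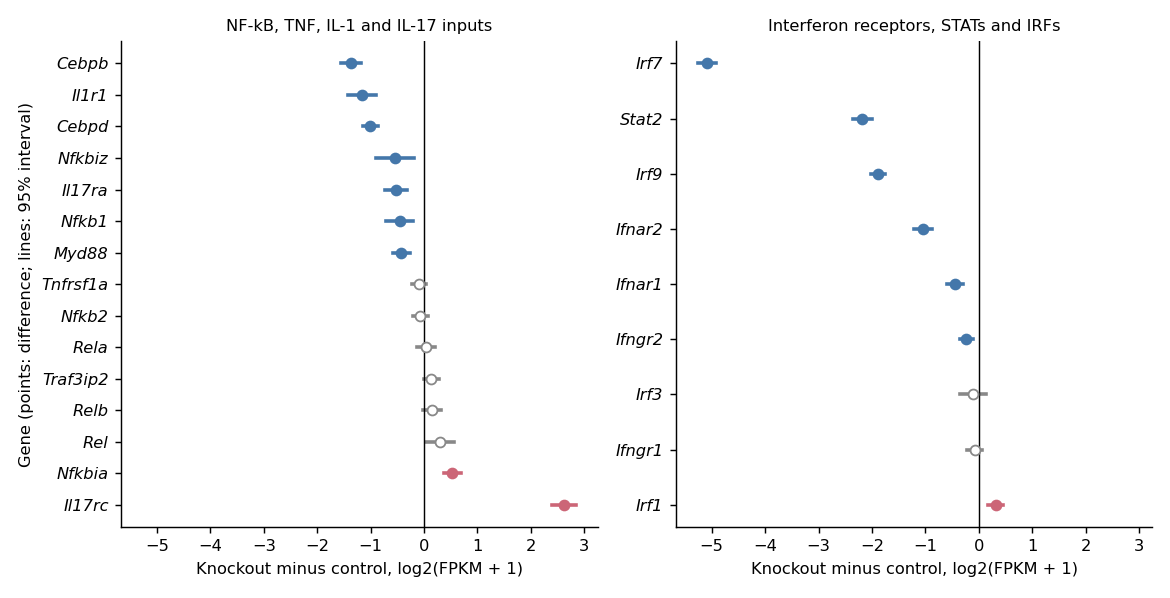
Difference between knockout and control on log2(FPKM + 1) for genes of the NF-kB, TNF, IL-1 and IL-17 inputs (left) and of interferon signalling (right), with 95% intervals as lines. Blue points were lower, red points higher and open points did not pass. Irf7 lies at -5.09 and Stat2 at -2.18, whereas Il17rc lies at 2.62.

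Of 6 genes that act on chemokine mRNA stability, 3 fell, 1 rose and 2 did not pass. Of all tested genes, 26.7% fell and 23.6% rose, and 50.2% passed in either direction. The fall of Zc3h12a was not stable. Zfp36l1, which binds AU-rich elements, rose by 0.54 ± 0.08 (SE, adjusted p = 0.00104). Arid5a, which stabilizes inflammatory mRNAs, fell by 0.43 ± 0.07 (SE, adjusted p = 0.00151). The RNase Zc3h12a, or Regnase-1, fell by 0.25 ± 0.09 (SE, adjusted p = 0.0476), a call lost under 11 of 16 alternatives, among them the removal of control replicate 1, 2 or 3 or of knockout replicate 3 (adjusted p from 0.0797 to 0.154). Of 10 tested genes of receptor signal transduction, 3 rose, 3 fell and 4 did not pass, again near the 50.2% of all tested genes that passed. The G protein regulators Rgs16 and Rgs2 rose by 1.97 ± 0.11 and 0.70 ± 0.09, and the arrestin Arrb1 and the receptor kinase Grk5 fell by 1.11 ± 0.09 and 0.84 ± 0.08 (SE).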

How the data were processed

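Libraries were made from extracted total RNA and sequenced on a DNBSEQ platform, where the study's RNA-seq methods name a BGISEQ instrument. How RNA was selected for the libraries is not stated. The authors removed adapter, poly-N and low-quality reads. HISAT2 2.0.4, Bowtie2 2.2.5 and mm10 appear in the submitters' processing notes, and the study's methods name RSEM (spelled RESM there) for expression. The deposited values were FPKM with 2 decimals; depth is unknown, so no counting interval was given, and a listed 0 may be a failed estimate. The annotation and strandedness are not given in the sources used here. Averages deposited by the authors were not used.

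Groups were taken from the sample titles. FPKM was converted to log2(FPKM + 1), genes with a mean of at least 1 FPKM were kept, and knockout was compared with control with limma 3.58.1 in R 4.3.3 (empirical Bayes with a mean-variance trend, no covariate, Benjamini-Hochberg adjustment over 11112 genes, threshold 0.05). The procedure was tested on simulated data. Members and lists were chosen with earlier results of these data known. Every member reaching 1 FPKM in at least 1 library was to be named with its values, and of each pathway list at most 2 genes that rose and 2 that fell, chosen by size of difference among those that passed, and the target S100a8; other genes named were chosen after their values were seen. Alternatives were pseudocounts of 0.1 and 0.5, no filter, a mean of at least 5 FPKM, rescaling to TPM, scaling by median-of-ratios, quantile normalization, a fit without trend, a replicate block and leaving out each library. Centring by chromosome was added after seeing the data. Promoter sequences were taken from RefSeq (GRCm38.p6), and positions and transcripts from GENCODE M21. Some genes of the pathway and marker lists are not reported here.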

Additional observations from a re-analysis of the deposited data

How the results depend on the processing

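For the 32 genes followed, the alternatives gave 503 values, of which 485 left the call as it was, 17 lost it and 1 gained it, with 0 reversals of direction. The lost calls were those of Ackr3 and Zc3h12a, and the gained call was that of Cx3cl1. The 14 members lower in the knockout were within 1.5 times that number under every alternative. With no filter on low values, 5 members were higher against 2, since 31 members were then tested; Cxcl2, Ackr4 and Ccl28, all under 1 FPKM, were added, and of all 17453 genes then tested 17.7% were higher. The number of all genes past the threshold was 4204 with a mean FPKM of at least 5, 4562 on centring by chromosome, and 4282 to 7403 on leaving out each library, highest without knockout replicate 2, against 5580. Centring by chromosome reduced the rises of Nfkbia (0.53 to 0.31) and Zfp36l1 (0.54 to 0.33), both on chromosome 12. Both still passed (adjusted p = 0.00846 and 0.00795). Other named genes moved either way in this setting, such as Grk5 (-0.84 to -0.62) and Stat2 (-2.18 to -2.30). Under quantile normalization the share of called genes that were higher was 54.8%, against 46.9%. Deviations from the group means correlated at 0.327, 0.104 and -0.214 between libraries sharing a replicate number, so the numbers were not taken to pair them. With the replicate block 5527 genes passed, and among the named genes Zc3h12a alone lost its call (adjusted p = 0.0595).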
